A study of Mus musculus with 28 samples.

Results

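The p38 MAP kinase pathway was followed through the reprogramming of mouse embryonic fibroblasts (MEFs) by the mRNA levels of 10 kinases, chosen by name from the 50600 genes of the deposited table. These are the 4 p38 isoforms (Mapk14, Mapk11, Mapk12 and Mapk13, encoding p38α, β, γ and δ), 2 kinases that activate them (Map2k3 and Map2k6, encoding MKK3 and MKK6) and 4 kinases that act downstream (Mapkapk2, Mapkapk3, Mapkapk5 and Rps6ka5, encoding MK2, MK3, MK5 and MSK1). All 10 passed the filter on low values. The clearest result was in Map2k6, which was higher in p38i-treated MEFs and on each of the 4 days of induction in p38i, while the mRNA of Mapk14, the most abundant isoform in every group, moved within a narrow range.

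RNA-seq libraries were made from 14 groups of 2 samples, 28 in all. The cells carry the genotype label WT. By the study's methods they are primary MEFs from embryos with the OG2 (Oct4-GFP) reporter, and those put through induction were infected with retroviruses for Oct4, Klf4 and Sox2 (OKS) and then moved to the medium iCD1, with day 0 at that change. The inhibitor SB203580 (p38i) was given to MEFs before induction in the arm named pre-p38i, and during induction in the arm named p38i. The third arm, labelled only as control and named DMSO in the paper, had no inhibitor, and all 3 arms were sampled on days 1, 3, 5 and 7. Untreated MEFs and p38i-treated MEFs had no label of infection. No source says whether the 2 samples of a group came from separate cultures, so the p-values measure only the spread between these samples, which may be technical. In bulk RNA, fewer cells of a type and less RNA per cell cannot be told apart.

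The p38 kinases relay stress and cytokine signals. MKK3 and MKK6 switch them on by phosphorylating a threonine and a tyrosine that flank a glycine in the activation loop, and the active kinases then phosphorylate MK2, MK3, MK5, MSK1 and a range of transcription factors. SB203580 competes with ATP in the pocket of p38α and p38β, where the threonine at the hinge leaves room for it, while p38γ and p38δ have a bulky methionine there and are little affected. The compound blocks catalysis, not transcription, so mRNA levels do not measure how far the pathway was inhibited.

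The hinge codon and the activation loop are shown because they separate the isoforms that the inhibitor binds from those it does not, and show the target that the activating kinases share. They are coding sequence from GENCODE M21 transcripts (GRCm38), 5′ to 3′, with codons counted from the start codon. Around the hinge, capitals mark the codon of the residue (threonine at codon 106 in Mapk14 and Mapk11, methionine at codon 109 in Mapk12 and codon 107 in Mapk13).
Mapk14: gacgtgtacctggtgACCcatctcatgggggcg
Mapk11: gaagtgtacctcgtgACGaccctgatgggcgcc
Mapk12: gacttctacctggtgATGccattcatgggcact
Mapk13: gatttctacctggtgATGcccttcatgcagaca
In the activation loop, capitals mark the threonine-glycine-tyrosine codons, which start at codon 180 in Mapk14, Mapk11 and Mapk13 and at codon 183 in Mapk12.
Mapk14: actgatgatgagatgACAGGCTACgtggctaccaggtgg
Mapk11: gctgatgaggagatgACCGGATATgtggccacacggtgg
Mapk12: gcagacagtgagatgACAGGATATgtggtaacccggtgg
Mapk13: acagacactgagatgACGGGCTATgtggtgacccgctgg
All 4 encode the same activation motif with different codons. Over the aligned coding sequence, Mapk14 shared 72.1% of its bases with Mapk11, and Mapk12 shared 73.4% with Mapk13, while the other 4 pairs shared 66.4% to 68.8%. No isoform pair met the limit set for near-identical copies (95% identity over 200 bases).

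By position in the table (build mm10, the same assembly as GRCm38), the isoforms lie in 2 pairs of neighbours. Mapk14 (ENSMUSG00000053436) is at chr17:28691342-28748404 and Mapk13 (ENSMUSG00000004864) at chr17:28769307-28778698, both on the plus strand and 20902 bases apart. Mapk12 (ENSMUSG00000022610) is at chr15:89130585-89140703 and Mapk11 (ENSMUSG00000053137) at chr15:89142486-89149606, both on the minus strand with 1782 bases between them. Map2k3 (ENSMUSG00000018932, chr11:60932033-60952811) and Map2k6 (ENSMUSG00000020623, chr11:110399122-110525522) share a chromosome and strand but are far apart. The downstream kinases lie on the minus strand of 4 chromosomes, Mapkapk2 (ENSMUSG00000016528) at chr1:131053700-131097826, Mapkapk3 (ENSMUSG00000032577) at chr9:107254927-107289877, Mapkapk5 (ENSMUSG00000029454) at chr5:121525038-121545905 and Rps6ka5 (ENSMUSG00000021180) at chr12:100549778-100725028. Exons of Mapkapk5 overlap those of Adam1a on the same strand over 1805 bases and those of Gm42878 over 1801, so that reads there could be assigned to any of the 3 genes. Adam1a had a value of 0 or 1 and Gm42878 of 0 in every library. Rps6ka5 overlaps Gm49703, which is not analysed here, over 179 exonic bases of the same strand.

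The start regions of the activating kinases are shown because their mRNAs moved differently under p38i. Each is 300 bases on the plus strand (250 before and 50 after the start in RefSeq, GRCm38), and capitals mark the matches to 4 motifs searched on both strands: AP-1 (TGANTCA), CRE (TGACGTCA), GC box (GGGCGG) and TATA box (TATAAA).
Map2k6, chr11:110398852-110399151: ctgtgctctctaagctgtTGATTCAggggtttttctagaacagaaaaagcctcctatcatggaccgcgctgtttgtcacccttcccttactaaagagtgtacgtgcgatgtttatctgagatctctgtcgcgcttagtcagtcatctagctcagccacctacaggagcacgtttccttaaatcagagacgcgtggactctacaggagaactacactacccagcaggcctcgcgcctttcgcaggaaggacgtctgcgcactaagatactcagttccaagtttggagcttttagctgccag
Map2k3, chr11:60931804-60932103: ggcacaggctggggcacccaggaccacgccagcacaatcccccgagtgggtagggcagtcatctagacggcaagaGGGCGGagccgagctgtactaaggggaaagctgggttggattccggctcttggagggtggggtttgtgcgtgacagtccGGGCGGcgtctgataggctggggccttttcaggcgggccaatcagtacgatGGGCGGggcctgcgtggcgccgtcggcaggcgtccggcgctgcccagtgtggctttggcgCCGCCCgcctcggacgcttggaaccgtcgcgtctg
The Map2k6 window held 1 AP-1 match and no other motif, with a GC content of 50%, and the Map2k3 window held 4 GC boxes at a GC content of 68.0%. Of 32851 windows of this length, 7.81% hold the AP-1 letters, 1.79% the CRE, 35.7% the GC box and 13.6% the TATA box. Map2k6 has 2 further RefSeq starts, at which the windows held a GC box and a TATA box. These matches describe letters in a window and say nothing of whether a factor binds there.

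Each library holds a whole number per gene, with a total of 991287 to 992537 and 12454 to 14170 genes at 1 or more. These were read as TPM rounded down, an abundance scaled by the authors for library size and transcript length, by which genes can be compared. Read depth is unknown, and the rounding weighs most on Mapk11, Mapk12 and Rps6ka5. Differences are log2 fold changes of (value + 1), which understate those of low genes, and were tested with limma on the 13230 genes whose mean reached 1, with Benjamini-Hochberg adjustment over them all. A gene was called at an adjusted p under 0.05. Marker genes moved with the groups. The summed level of 10 fibroblast markers (Col1a1, Dcn and others) was 10611 to 10817 in MEFs, 6813 to 6883 in p38i-treated MEFs, 1796 to 1892 in DMSO on day 7, 2238 to 2273 in p38i and 1097 to 1143 in pre-p38i. On day 7, 9 pluripotency markers summed to 109 to 124 in DMSO, 36 to 38 in p38i and 185 to 193 in pre-p38i, and 10 simple epithelial markers to 512 to 545, 220 to 240 and 999 to 1039. The sum of 14 macrophage markers was 407 to 414 in DMSO, 262 to 312 in p38i and 116 to 122 in pre-p38i on that day. Fcgr1 was then at 0 in each arm, Ptprc in p38i and pre-p38i, and Csf1r in pre-p38i. The part of these marker differences in the results was not tested.

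**Figure D1:**
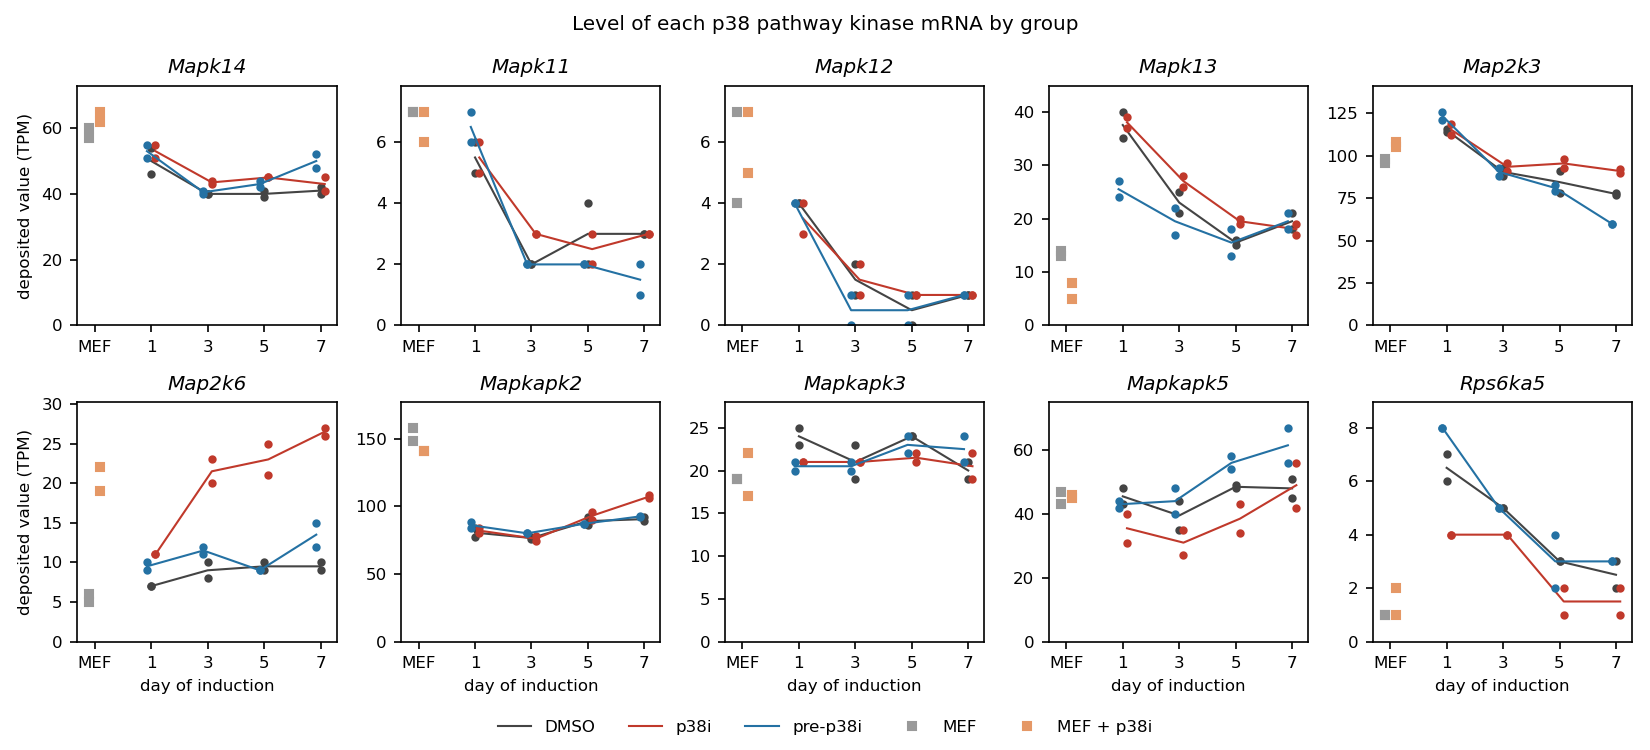
Level of each of the 10 mRNAs (vertical axis, deposited value read as TPM, from 0) in MEFs and on days 1, 3, 5 and 7 of induction. Points are libraries, squares are MEFs and lines join the means of 2 libraries in the DMSO, p38i and pre-p38i arms. Map2k6 rises to 26 and 27 in p38i on day 7 while both DMSO libraries stay at 9 and 10.

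On this per-length scale, the most abundant member mRNAs were Map2k3 (median value over 28 libraries 93.0, range 60 to 126) and Mapkapk2 (87.5, 74 to 158), followed by Mapk14 (45.0, 39 to 65), Mapkapk5 (44.5, 27 to 67), Mapkapk3 (21.0, 17 to 25), Mapk13 (19.5, 5 to 40) and Map2k6 (10.5, 5 to 27). Mapk11 (3.0, 1 to 7), Rps6ka5 (3.0, 1 to 8) and Mapk12 (1.0, 0 to 7, at 0 in 3 libraries) were low throughout. Between groups, means of Mapk13 spanned the widest range (2.41 on the log2 scale), then Mapk12 (2.29), Rps6ka5 (2.17) and Map2k6 (2.08), and those of Mapkapk3 the narrowest (0.32).

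MEFs kept in p38i were set against untreated MEFs to ask how the inhibitor alone changed the pathway's mRNAs before any reprogramming factor. Map2k6 rose and Mapk13 fell. These 2 of 10 members were called, where 17.9% of all genes were (9.73% higher and 8.15% lower). Map2k6, which encodes MKK6, had values of 5 and 6 in untreated MEFs and of 22 and 19 in treated MEFs, and the groups were far apart. Its log2 fold change was 1.73 (SE 0.13, limma adjusted p = 1.65e-08), a 3.31-fold rise of (value + 1). It was called under all 7 alternative settings and without each of the 4 libraries. Mapk13, the p38δ gene, had values of 13 and 14 in untreated MEFs and of 5 and 8 in treated MEFs. Its change was -0.98 (SE 0.17, limma adjusted p = 0.000367), but in a fit of only these 2 groups it was not called (adjusted p = 0.172).

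None of the other 8 members was called in MEFs. Mapk14 had values of 60 and 57 in untreated and of 62 and 65 in treated MEFs, and although these do not overlap, the log2 difference of 0.12 (95% interval -0.04 to 0.27) had an adjusted p of 0.319 in limma. Map2k3, the other p38 activator among the members, stood at 98 and 96 against 105 and 108 (0.13, interval 0.01 to 0.26, limma adjusted p = 0.152). Mapkapk2, the main p38 effector kinase for mRNA stability and small heat shock proteins, stood at 158 and 148 against 141 and 141 (-0.12, interval -0.23 to -0.0037, limma adjusted p = 0.155). Differences for Mapk11, Mapk12, Mapkapk3, Mapkapk5 and Rps6ka5 lay between -0.10 and 0.29 on the log2 scale. Of the sum of Map2k3 and Map2k6 (the activator sum), Map2k6 went from 5.37% ± 0.727 (SD, n = 2) in untreated MEFs to 16.1% ± 1.67 in treated MEFs. Map2k4, counted below among the kinases upstream of p38, is not in this sum and stood at 56 to 59 against 59 to 60. The macrophage marker sum was 317 to 335 in untreated and 222 to 225 in treated MEFs, and the sum of 11 epidermal markers, of which Krt17 is at 0 in every library, was 32 to 35 against 20 to 21. Of 6 skeletal muscle markers, Myod1, Myog, Myf5 and Ckm were at 0 in every library of the series. The remaining ones, Des and Actn3, summed to 16 to 18 in untreated and 18 to 23 in treated MEFs.

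**Figure D2:**
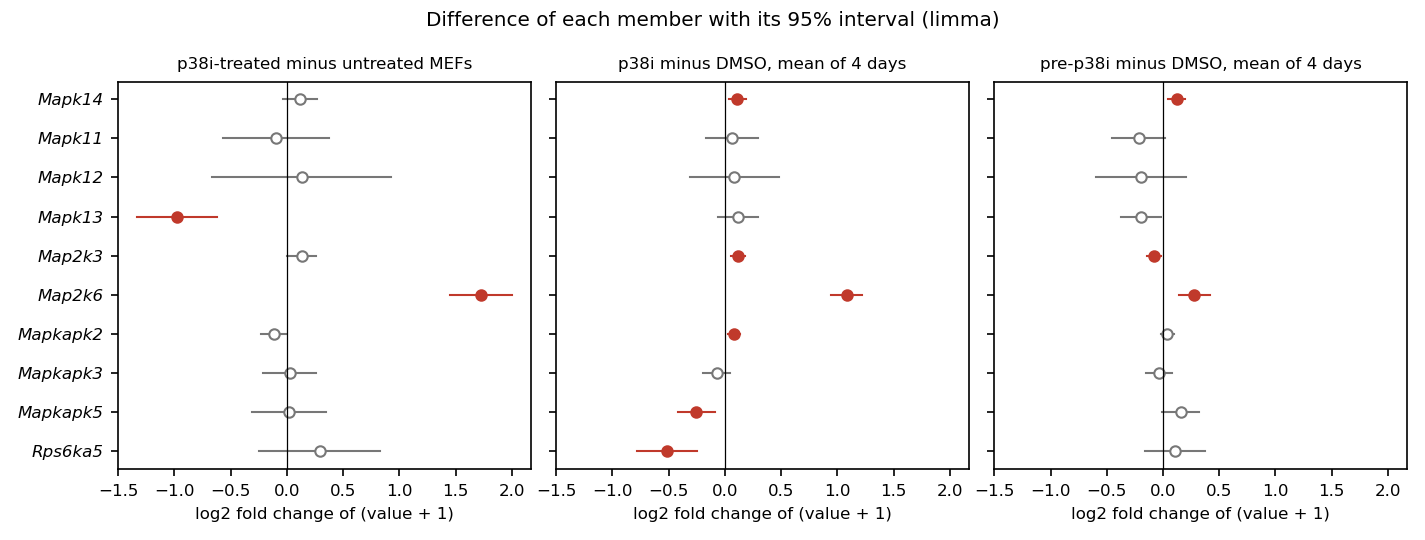
log2 fold change of (value + 1) for each member (horizontal axis) with its 95% interval in p38i-treated against untreated MEFs, and in p38i and pre-p38i against DMSO as the mean of 4 days. Filled red points passed an adjusted p of 0.05 in limma, open grey points did not. Map2k6 lies at 1.73, 1.08 and 0.28.

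When the inhibitor was present during induction, Map2k6 had the largest change among the called members on each of the 4 days. In DMSO, Map2k6 had values of 7 and 7 (day 1), 8 and 10 (day 3), 9 and 10 (day 5) and 9 and 10 (day 7). In p38i it had 11 and 11, then 23 and 20, then 21 and 25, and then 26 and 27. Both p38i libraries lay above both DMSO libraries on every day. The log2 fold change was 0.58 at day 1 (adjusted p = 0.00433), 1.17 at day 3 (2.15e-06), 1.19 at day 5 (1.66e-06) and 1.39 at day 7 (1.63e-07), each with an SE of 0.13 in limma. Among the 7 settings, only a fit of the 2 groups alone took away a call, that of day 3 (adjusted p = 0.0646). Map2k6 reached 22.6% ± 0.738 of the activator sum in p38i on day 7, against 10.9% ± 0.813 in DMSO.

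Map2k3 was higher by far less. On day 5 it had values of 78 and 91 in DMSO and of 98 and 93 in p38i, a log2 difference of 0.18 (SE 0.06, limma adjusted p = 0.0370) that was lost without DMSO replicate 1 or without either p38i replicate (adjusted p up to 0.477). On day 7 the values were 78 and 77 against 92 and 90, which do not overlap, and the difference of 0.23 (SE 0.06, limma adjusted p = 0.00671) was called under all 7 settings and without each library. Of 10 members, 1 was called at day 1, where 16.1% of all genes were called, 1 at day 3 (21.4%), 3 at day 5 (26.6%) and 3 at day 7 (34.1%), so the counts were close to or below the share of all genes.

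Among the downstream kinases, Mapkapk2 was higher on day 7, with values of 92 and 89 in DMSO and of 106 and 108 in p38i (log2 difference 0.24, SE 0.05, limma adjusted p = 0.00180), called under all settings. Rps6ka5, whose product MSK1 phosphorylates histone H3 and CREB, had values of 3 and 3 in DMSO and of 1 and 2 in p38i on day 5. This difference of -0.71 (SE 0.26, limma adjusted p = 0.0476) rests on a few units of TPM and was lost without either DMSO replicate or without p38i replicate 1 (adjusted p up to 0.371), and under 5 of 6 settings, among them the replicate block. No isoform was called on any day in limma, and 1 (Mapk14 on day 5) had an unadjusted p under 0.05. After quantile normalization Mapk11 was called on day 3 (0.93, adjusted p = 0.00410) and Mapk14 (0.28, 0.00958) and Mapk13 (0.45, 0.0486) on day 5. For Mapk14 the daily log2 differences were 0.09, 0.12, 0.17 and 0.07, and the widest 95% interval reached 0.32. For Mapk13 they were 0.02, 0.23, 0.31 and -0.11.

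Averaged over the 4 days, 6 of 10 members were called between p38i and DMSO, against 47.9% of all genes (14.9% higher, 33.0% lower). Of the calls over all genes 31.2% were higher, and 54.4% after quantile normalization, which raised the median of all genes by 0.10 on the log2 scale. On days 1, 3 and 5 the same scaling took the share of calls that were higher from 21.6% to 41.1%, from 24.4% to 50% and from 29.6% to 52.7%, with shifts of the median of 0.09, 0.12 and 0.10. Map2k6 was higher by 1.08 (SE 0.07, limma adjusted p = 1.01e-10) in 8 of 8 day-matched libraries. Map2k3 (0.11, limma adjusted p = 0.00438), Mapk14 (0.11, 0.0198) and Mapkapk2 (0.08, 0.0195) were also called higher. These differences were close in size to that shift, which goes in the same direction, so quantile normalization did not remove them. Each was called under all 7 settings. The call for Mapk14 was lost without DMSO day 1 replicate 2, p38i day 1 replicate 2 or p38i day 7 replicate 1 (adjusted p up to 0.0651). That for Mapkapk2 was lost without DMSO day 1 replicate 2, DMSO day 5 replicate 1, p38i day 1 replicate 2, p38i day 3 replicate 1 or p38i day 5 replicate 1 (adjusted p up to 0.0602). Rps6ka5 was lower by the mean over days (-0.51, SE 0.13, limma adjusted p = 0.00268), and this call held without each of 16 libraries. Mapkapk5, which encodes MK5, was lower by -0.25 (SE 0.08, adjusted p = 0.0118), a call lost after quantile normalization (adjusted p = 0.0617), and its p38i values on days 1, 3 and 5 (31 and 40, 27 and 35, 34 and 43) were mostly below those of DMSO (43 and 48, 44 and 35, 48 and 49).

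**Figure D3:**
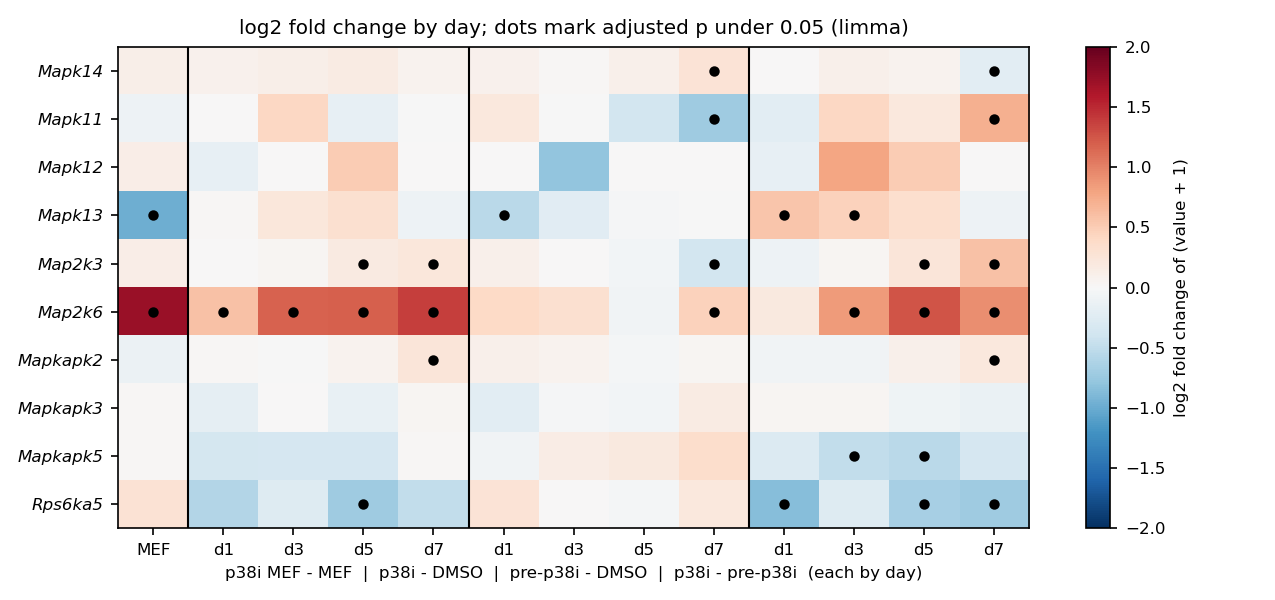
log2 fold change of (value + 1), as colour from -2 to 2, of each member in p38i-treated against untreated MEFs and, by day, in p38i against DMSO, pre-p38i against DMSO and p38i against pre-p38i. Black dots mark an adjusted p under 0.05 in limma. Map2k6 holds a dot in MEFs, on all 4 days of p38i against DMSO, and on day 7 of pre-p38i against DMSO. It also holds a dot on days 3, 5 and 7 of p38i against pre-p38i.

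In pre-p38i on day 1, with the inhibitor withdrawn at induction, the rise of Map2k6 seen in MEFs was largely gone. By the study's methods, infection with OKS and the change to iCD1 also came between p38i-treated MEFs and this group. Their parts and that of the withdrawal cannot be told apart. The values were 22 and 19 in p38i-treated MEFs and 9 and 10 in pre-p38i on day 1, which is a fall of 1.03 on the log2 scale (change -1.03, SE 0.13, limma adjusted p = 1.37e-06). DMSO libraries of that day had 7 and 7, below both pre-p38i libraries. The log2 difference of pre-p38i from DMSO was 0.39 (interval 0.11 to 0.67) and was not called (limma adjusted p = 0.0630). A return to the DMSO level was therefore not shown. Between treated MEFs and pre-p38i day 1, 6 of 10 members were called, and 56.0% of all genes. Mapk13 rose from 5 and 8 to 24 and 27 (1.85, SE 0.17, adjusted p = 1.23e-08) and Rps6ka5 from 2 and 1 to 8 and 8 (1.88, SE 0.26, adjusted p = 3.18e-06), while Mapkapk2 fell from 141 and 141 to 84 and 88 (-0.71, SE 0.05, adjusted p = 7.33e-10), all in limma. Mapk14 (-0.26) and Map2k3 (0.21) were called too, but Mapk14 not without p38i-treated MEF replicate 2 or pre-p38i replicate 1 (adjusted p up to 0.0693), and Map2k3 not without pre-p38i replicate 2 (0.0551) or after quantile normalization, which lowered the median of all genes by 0.18 (a shift of -0.18) and took the share of calls that were higher from 63.1% to 47.1%.

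Against DMSO, pre-p38i cells had 1 of 10 members called at day 1 (11.6% of all genes), 0 at day 3 (20.6%), 0 at day 5 (25.6%) and 4 at day 7 (29.9%) in limma. At an unadjusted p under 0.05 there were 1 at day 3 and 0 at day 5. On day 1 this was Mapk13, with 40 and 35 in DMSO and 24 and 27 in pre-p38i (-0.54, SE 0.17, limma adjusted p = 0.0450), which do not overlap. The call was lost without any of DMSO replicate 1, DMSO replicate 2, pre-p38i replicate 1 or pre-p38i replicate 2 (adjusted p up to 0.246) and under 5 of 7 settings, the replicate block among them. The epidermal marker sums on that day were 328 to 348 in DMSO and 336 to 344 in pre-p38i. In p38i, where Mapk13 had 37 and 39, they were 271 to 273. The part of these markers in the Mapk13 result was not tested. On day 3 the share of all calls that were higher went from 66.7% to 50.7% after quantile normalization.

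On day 7, Map2k3 stood out among the 4 calls. It had values of 78 and 77 in DMSO and of 60 and 60 in pre-p38i, the lowest of all 14 groups, and its difference of -0.36 (SE 0.06, limma adjusted p = 0.000148) was called under all 7 settings and without each library. Map2k6 went the other way, with 9 and 10 against 12 and 15 (0.46, SE 0.13, limma adjusted p = 0.0126), a call lost without DMSO replicate 1 or pre-p38i replicate 2 (adjusted p up to 0.168). Mapk14 had 40 and 42 against 52 and 48 (0.28, SE 0.07, limma adjusted p = 0.00716), lost without DMSO replicate 1 or pre-p38i replicate 1 (up to 0.0853). Mapk11, the p38β gene, had 3 and 3 against 2 and 1 (-0.71, SE 0.22, limma adjusted p = 0.0215), lost without DMSO replicate 1, DMSO replicate 2 or pre-p38i replicate 2 (up to 0.265). None of these last 3 was called with only the 2 groups fitted. As the mean of 4 days, 3 members were called (45.0% of all genes, 27.3% higher and 17.7% lower). These were Map2k6 (0.28, SE 0.07, limma adjusted p = 0.00200), Mapk14 (0.12, adjusted p = 0.0113, but 0.110 after quantile normalization) and Map2k3 (-0.08, adjusted p = 0.0407). Map2k3 kept its call without only 5 of 16 libraries. Its call was also lost with only the compared groups fitted and without the eBayes trend. Nor was Map2k3 lower on every day, with 121 and 126 in pre-p38i against 114 and 116 in DMSO on day 1. Map2k6 made up 18.3% ± 2.36 (SD, n = 2) of the activator sum in pre-p38i on day 7.

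The p38i and pre-p38i arms differ in when the inhibitor was present. Between them 2 of 10 members were called at day 1 (28.2% of all genes), 3 at day 3 (42.2%), 4 at day 5 (47.5%) and 6 at day 7 (54.3%). Map2k6 was higher in p38i by 0.85 on day 3 (adjusted p = 3.87e-05), 1.26 on day 5 (2.23e-07) and 0.93 on day 7 (6.76e-06), with limma SEs of 0.13, and Map2k3 by 0.23 on day 5 (0.00375) and 0.59 on day 7 (1.11e-07), where the libraries had 92 and 90 against 60 and 60. Mapkapk2 was higher by 0.21 on day 7 (limma adjusted p = 0.00290). These calls of Map2k6, Map2k3 and Mapkapk2 held without each library. The remaining 9 calls did not. On days 1, 3 and 5 these were Mapk13 (0.56 and then 0.46), Rps6ka5 (-0.85 on day 1, -0.66 on day 5) and Mapkapk5 (-0.50 on day 3, -0.54 on day 5), each lost without p38i replicate 1 or pre-p38i replicate 1 (adjusted p up to 0.448). Those of Mapk13 were also lost without p38i replicate 2, and that of Rps6ka5 at day 1 without replicate 2 of either arm. On day 7, Mapk14 (-0.21) was lost without p38i replicate 2 or pre-p38i replicate 1 (up to 0.186), Mapk11 (0.71) without pre-p38i replicate 2 (0.190) and Rps6ka5 (-0.71) without p38i replicate 2 or either pre-p38i replicate (up to 0.273). Quantile normalization took the share of all calls that were higher from 29.3% to 44.5% on day 1, from 25.5% to 53.7% on day 3 and from 34.4% to 52.9% on day 5.

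In DMSO, the largest changes came with the first day of induction, where 6 of 10 members were called against 55.5% of all genes. Mapk13 rose from 13 and 14 in MEFs to 40 and 35 (1.41, SE 0.17, limma adjusted p = 6.13e-07) and Rps6ka5 from 1 and 1 to 7 and 6 (1.90, SE 0.26, adjusted p = 2.69e-06). Mapkapk2 fell from 158 and 148 to 84 and 77 (-0.92, SE 0.05, adjusted p = 1.34e-11), and Map2k3 rose from 98 and 96 to 114 and 116 (0.24, adjusted p = 0.00213). These 4 were called under every setting that kept them in the test and without each library. Mapk14 (-0.23) was lost without untreated MEF replicate 1 or DMSO day 1 replicate 2 (adjusted p up to 0.262), and Mapkapk3 (0.32) without either MEF replicate or DMSO day 1 replicate 1 (0.127) and after quantile normalization, which moved the median of all genes by -0.21 and the share of calls that were higher from 65.9% to 47.5%. The epidermal marker sum rose from 32 to 35 in MEFs to 328 to 348 on this day, alongside Mapk13, and the part of that change in the Mapk13 result was not tested.

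After day 1 the isoforms fell. From day 1 to day 3, 5 members were called, all lower, where 44.5% of all genes were called: Mapk11 from 5 and 6 to 2 and 2 (-1.11, SE 0.22, limma adjusted p = 0.000428), Mapk13 from 40 and 35 to 21 and 25 (-0.68, adjusted p = 0.00267), Map2k3 from 114 and 116 to 93 and 88 (-0.34, adjusted p = 0.000133), Mapk14 from 54 and 46 to 40 and 40 (-0.31) and Mapk12 from 4 and 4 to 1 and 2 (-1.03). The last 2 depended on the library left out, Mapk14 on DMSO day 1 replicate 1 (adjusted p = 0.0633 without it) and Mapk12 on DMSO day 1 replicate 1, day 1 replicate 2 or day 3 replicate 1 (up to 0.234). From day 3 to day 5, 2 were called (19.4% of all genes), Mapk13 (-0.54) and Mapkapk2 (0.21). Mapk13 lost its call without day 3 replicate 2 or either day 5 replicate (adjusted p up to 0.203) and Mapkapk2 without day 5 replicate 2 (0.105). The share of calls that were higher at this step was 71.3%, and 50.8% after quantile normalization. From day 5 to day 7 no member was called in limma (26.7% of all genes), and 1 had an unadjusted p under 0.05.

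Each arm was also compared between its first and last day. In DMSO 8 of 10 members were called (54.6% of all genes), in p38i 9 (54.9%) and in pre-p38i 6 (63.6%). Mapk11, Mapk12, Map2k3 and Rps6ka5 were lower and Map2k6 higher in all 3 arms on day 7. Mapk13 was lower in DMSO (-0.91) and p38i (-1.04), called under all 7 settings and without each library. In pre-p38i it was not called (-0.37, limma adjusted p = 0.0623). Mapk14 was lower (-0.28 and -0.30) and Mapkapk2 higher (0.17 and 0.38) in DMSO and p38i. Mapkapk5 was higher in p38i and pre-p38i (0.45 and 0.50). Of the Mapk14, Mapkapk2 and Mapkapk5 calls, only those of Mapk14 and Mapkapk2 in p38i held without each library. Map2k3 fell by 0.56 in DMSO (values 114 and 116 to 78 and 77), 0.34 in p38i (112 and 119 to 92 and 90) and 1.03 in pre-p38i (121 and 126 to 60 and 60). The fall in pre-p38i exceeded that in DMSO by 0.47 (difference of changes -0.47, SE 0.09, limma adjusted p = 0.000839), the only member for which this difference was called, apart from Mapk11 after quantile normalization or without the eBayes trend, where 16.7% of all genes were. Map2k6 rose by 0.39 in DMSO, by 1.196 in p38i (11 and 11 to 26 and 27) and by 0.46 in pre-p38i. The rise in p38i exceeded that in DMSO by 0.81 (SE 0.19, limma adjusted p = 0.00429), again the only member called, where 21.6% of all genes were, apart from Map2k3 with only the compared groups fitted and Mapkapk2 under 3 other settings. Both differences were called under all 7 settings and without each of 8 libraries. The DMSO rise of Map2k6 itself was lost after quantile normalization (adjusted p = 0.277) and without either day 1 replicate or day 7 replicate 2 (up to 0.118). The pre-p38i rise was lost without pre-p38i day 7 replicate 2 (0.0957), after quantile normalization and with only the compared groups fitted. The fall of Mapk11 was lost without DMSO day 1 replicate 2 or either DMSO day 7 replicate (up to 0.0939) and without p38i day 1 replicate 2 (0.0950). That of Mapk12 was lost in every arm with a pseudocount of 0.1, and in p38i without day 1 replicate 2 or either day 7 replicate (up to 0.0948). That of Rps6ka5 in p38i was lost without day 7 replicate 2 (0.05003) and with only the compared groups fitted. In p38i, the share of all calls that were higher on day 7 went from 59.9% to 45% after quantile normalization.

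**Figure D4:**
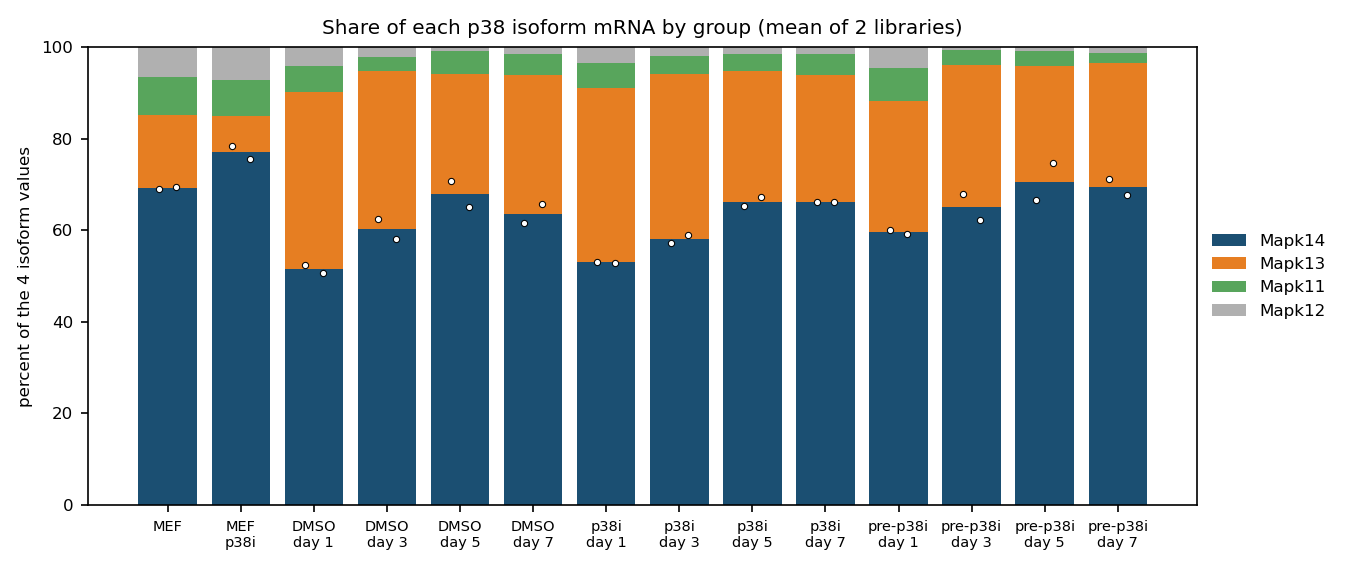
Share of each p38 isoform mRNA in the sum of the 4 values (vertical axis, percent, 0 to 100) for the 14 groups. Bars stack the means of 2 libraries, and white points give the Mapk14 share in each library. The Mapk13 share is 16.0% in MEFs, 7.82% in p38i-treated MEFs and 38.6% in DMSO on day 1.

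The make-up of the isoform mRNAs followed Mapk13, since Mapk11 and Mapk12 together were a small part of the sum on every day after the first. Mapk13, whose product is little affected by SB203580, made up 16.0% of the sum in MEFs and 7.82% in p38i-treated MEFs. On day 1 its share was 38.6% in DMSO, 38.02% in p38i and 28.6% in pre-p38i. On day 7 the 3 arms had 30.2%, 27.7% and 27.1%. Mapk11 held 8.29% in MEFs and between 2.07% and 7.29% during induction, and Mapk12 went from 6.46% in MEFs to 1.39% to 1.55% on day 7. Over the 14 groups the mean Mapk14 value of the isoform shares was 64.1%. These shares are descriptions, with no test.

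In the order of the 14 group means, Mapk14 was highest in p38i-treated MEFs and then in untreated MEFs, and each of these stood clear of its next neighbour. Its 3 groups of day 1 came next with pre-p38i day 7, and their ranges overlapped in order. Below them the groups from 39 to 45 could hardly be separated. For Map2k6 the order was led by p38i day 7, which stood clear of the next group. Days 5 and 3 of p38i and p38i-treated MEFs followed, with ranges that overlapped between neighbours, and a gap from 15 to 19 set these apart from all other groups. Untreated MEFs came last (5 and 6).

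Other genes of the pathway moved in both directions. Their lists were chosen by function with earlier results known, and are given as counts beside all genes. The background for these counts is the share of all genes called, which was 9.73% higher and 8.15% lower in treated MEFs, 14.9% higher and 33.0% lower in p38i as the mean of 4 days (47.9% in all) and 27.3% higher and 17.7% lower in pre-p38i (45.0%). After quantile normalization 54.4% of all calls in p38i were higher, against 31.2% without it. Of 27 listed names of kinases and adaptors upstream of p38, 26 matched a gene in the data and 23 were tested. In p38i-treated MEFs 1 was higher and 1 lower (median log2 difference 0.0020, all genes 0). As the mean of 4 days against DMSO, 5 of 23 were higher and 5 lower in p38i (median -0.02, all genes -0.07), beside 47.9% of all genes called, and 6 higher and 3 lower in pre-p38i (0.05, all genes 0.05), beside 45.0%. Map3k4 (MEKK4), a kinase that feeds MKK3 and MKK6, had values of 13 to 14 in MEFs and 21 to 22 in treated MEFs (0.63, SE 0.11, limma adjusted p = 0.000503) and was higher in p38i by 0.42 over the days (adjusted p = 4.60e-06). Gadd45a, a stress-induced activator of MEKK4, was higher in p38i by 0.40 (adjusted p = 1.99e-07) and lower in pre-p38i by 0.53 (change -0.53, adjusted p = 5.02e-09). Taok3 was higher in p38i (0.31), and Map3k3, Map3k11 and Tab2 in pre-p38i (0.29, 0.19 and 0.17), while Map3k20 was lower in treated MEFs (-0.56).

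Of the 20 other substrates of p38 and its effectors, all were tested, and 2 were higher and 3 lower in treated MEFs (median -0.08). In p38i 3 of 20 were higher and 11 lower (median -0.13, all genes -0.07), where 14.9% of all genes were higher and 33.0% lower, and in pre-p38i 7 were higher and 2 lower (median 0.06, all genes 0.05), where 27.3% and 17.7% were. Hspb1, the small heat shock protein that MK2 phosphorylates, had 422 to 466 in MEFs and 366 to 374 in treated MEFs (-0.26, limma adjusted p = 0.0319), and was lower in p38i by the mean of 4 days (-0.63, SE 0.04, adjusted p = 2.18e-10). Zfp36l1, an mRNA-decay factor that MK2 controls, was lower in p38i (-0.52, adjusted p = 3.07e-08), as was Rps6ka4, which encodes MSK2 (-0.21). Mknk2, the MNK2 kinase, was higher in treated MEFs (0.37) and in p38i (0.42, adjusted p = 2.24e-09). In pre-p38i Cdc25b, a cell cycle phosphatase, was higher (0.61, adjusted p = 1.40e-07) with Eef2k (0.24), and the stress factor Ddit3 lower (-0.76, adjusted p = 9.04e-09). Treated MEFs also had higher Cdc25b (0.39) and lower Mef2d (-0.43) and Max (-0.24).

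Phosphatases that switch p38 off numbered 12, of which 10 were tested. In treated MEFs 2 were called, both higher (median 0.13, all genes 0), among them Dusp10 (MKP5), with 11 to 14 in MEFs and 21 in both treated libraries (0.71, SE 0.13, limma adjusted p = 0.000661). In p38i 2 of 10 were higher and 2 lower (median -0.07, all genes -0.07), against a background of 47.9%. In pre-p38i 1 was higher, Ppp2ca (0.10), and 3 lower (median -0.06, all genes 0.05), where 45.0% of all genes were called. Of 14 kinases of the other MAP kinase branches, 12 were tested. In treated MEFs 3 were higher, among them Mapk3 (ERK1, 0.32) and Map2k2 (MEK2, 0.24), and 1 lower, Map2k1 (MEK1), from 108 to 111 down to 74 to 77 (-0.53, SE 0.06, limma adjusted p = 1.47e-06). In p38i 4 of 12 were higher, with Map2k2 at 0.24, and 3 lower (median -0.0076, all genes -0.07), against a background of 47.9%. The pre-p38i mean had 3 higher and 1 lower, which was Mapk6 (-0.34, adjusted p = 7.45e-08), with a median of 0.03 (all genes 0.05) and 45.0% of all genes called. All p38i and pre-p38i comparisons share the DMSO libraries.

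Genes whose 14 group means ran most like a member's were sought among 10668 genes with a mean of at least 5. Those most like Mapk14 were Sae1 (Pearson r = 0.966), Pitrm1 (0.954) and Fam57a (0.954), and those most like Mapk13 were Ripk3 (0.963), Bloc1s2 (0.942) and Parm1 (0.935). These correlations describe 14 points that share libraries and scaling.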

How the data were processed

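RNA-seq was analysed in 28 libraries, 2 in each of 14 groups taken from the sample labels. The score that the authors deposited per gene and library is a whole number read as TPM rounded down. The submitters' processing notes name bcl2fastq, Bowtie2 2.2.5, RSEM 1.3.0 and the builds mm10 and hg38, without steps. Labels and methods differ on the RNA extraction, the library kit and the MEF medium.

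Values were tested as log2(value + 1) with limma 3.58.1 in R 4.3.3 (eBayes with a trend), for the 13230 genes whose mean reached 1. A joint model held the 14 groups, and genes were called at a Benjamini-Hochberg adjusted p under 0.05. The procedure was tested on simulated data. Sequence copies were sought with BLAST 2.17.0, and figures drawn with matplotlib 3.10.9. The members and lists were chosen with earlier results of these data known. All 10 members are named, and of each list at most 3 called genes per direction, where the mean reached 5 and the groups did not overlap. A gene that meets this rule is not reported here. For likeness, Mapk14 and the other member with the widest range were used.

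The settings tried besides were a smaller pseudocount (0.1), a filter at a mean of 5 and none, quantile normalization, eBayes without the trend, the replicate number as a term, fits to the compared groups alone, and each library left out in turn.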

Additional observations from a re-analysis of the deposited data

Results flagged for a closer look

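The change from day 1 to day 7 differed between arms in 2 members, by a test of the difference itself in limma. This was 1 of 10 members for p38i against DMSO, where 21.6% of all genes were called. It was 1 of 10 for pre-p38i against DMSO, where 16.7% were, so neither count exceeded the share of all genes. For Map2k6 it was larger in p38i than in DMSO by 0.81 on the log2 scale (adjusted p = 0.00429), with p38i values of 11 and 11 on day 1 and of 26 and 27 on day 7 against 7 and 7 and then 9 and 10 in DMSO. For Map2k3 the difference of pre-p38i from DMSO was -0.47 (adjusted p = 0.000839), with pre-p38i values of 121 and 126 and then of 60 and 60 against 114 and 116 and then 78 and 77 in DMSO. The fibroblast marker sum differed between arms on the same days (5323 to 5596 in DMSO, 4052 to 4088 in p38i and 3780 to 3973 in pre-p38i on day 1), and its part in these results was not tested. Groups of 2 libraries were too small to look for single libraries that stand apart.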

How the results depend on the processing

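No called result changed direction under any setting. Among results called in neither fit, quantile normalization turned Map2k6 from untreated MEFs to DMSO day 1 from 0.30 to -0.062 and Rps6ka5 in p38i against pre-p38i on day 3 from -0.26 to 0.065. Leaving out each replicate of DMSO day 5 gave -0.21 to 0.0084 for Map2k3 from DMSO day 3 to day 5 (-0.10 with all samples) and -0.029 to 0.16 for Mapk11 in p38i against DMSO over 4 days (0.06 with all samples), and the cause of these changes was not tested. With only the groups compared in the fit, which leaves fewer samples to estimate the spread, the members called fell from 2 to 1 in treated against untreated MEFs, from 5 to 1 over the 4 days of pre-p38i against DMSO, from 15 to 8 over those of p38i against pre-p38i, and from 13 to 8 over the DMSO course. With a minimum mean of 5, which removes Mapk11, Mapk12 and Rps6ka5, the calls from day 1 to day 7 fell from 23 to 14. Leaving out 1 library gave between 2 (without DMSO day 7 replicate 1) and 6 calls in pre-p38i against DMSO, with 3 without pre-p38i day 7 replicate 2, and between 6 and 8 in p38i against DMSO. With values multiplied by gene length, the mean Mapk14 value of the isoform shares went from 64.1% to 71.0%. Over all genes, the fit of only the groups compared called 904 against 2365 in MEFs, between 853 (against 2128) and 2749 (against 4509) on the days of p38i against DMSO, between 359 (against 1539) and 2285 (against 3952) on those of pre-p38i against DMSO, and 365 against 2569 at the DMSO step from day 3 to day 5.

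Same-numbered libraries did not deviate together over all genes (correlations between -0.08 and 0.09 over 91 pairs of groups). No pairing by number was seen, but such correlations cannot tell whether same-numbered samples shared a culture. With the replicate block, 7 members instead of 8 were called in p38i against DMSO and 4 instead of 5 in pre-p38i against DMSO, and no other count of members called changed. Quantile normalization took 12 member results below the threshold and 19 above it.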
